A study of Homo sapiens with 6 samples.

Results

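The DNA replication and E2F genes described here are 49 genes chosen by name, from the assembly of the replicative helicase to the repair of stalled forks, and all 49 were among the 16000 genes of the deposited table. The samples were 6 RNA libraries of LNCaP, an established and androgen-responsive line of human prostate cancer cells. ALDEFLUOR, a fluorescent dye that is retained in cells with aldehyde dehydrogenase activity, was used to sort the line. Of the samples, 3 came from the brightest 10% (ALDH high) and 3 from the dimmest 10% (ALDH low). Both groups were the same unmodified line, received no drug per the labels, and were grown in RPMI-1640 with 10% fetal bovine serum after the sort. Nothing in the labels tells whether a group's samples are separate sorts or cultures. The p-values then measure only the spread between these 6 samples, which may be technical. How long the sorted cells were cultured is not stated in the labels.

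A cell licenses its origins of replication in G1 by loading the MCM helicase, fires them in S phase, and copies each strand with dedicated polymerases held on DNA by the PCNA clamp. The E2F transcription factors, held back by RB until cyclin-dependent kinases release them, switch on most genes of this program at the entry to S phase, including the gene of E2F1 itself. The RNA of these genes is therefore widely read as a sign of how many cells of a culture are cycling. In RNA from many cells, fewer cells in S phase and less RNA per cell cannot be told apart.

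The promoters are shown first, because matches to the E2F site are common to most of them. RefSeq promoter windows (GRCh38.p14, 250 bases before to 50 after the annotated start) were found for 43 of the 49 genes. They were searched on both strands for 5 forms of the E2F site, TTTCCCGC, TTTGGCGC, TTTCGCGC, TTTGCCGC and TTCCCGCC, of which the first and the last can overlap by 7 bases. At least 1 form was present in 31 of the 43 windows (72.1%), against 935 of 10501 windows of the table's genes (8.90%) and 5.58% of all 35116 windows. The genes were chosen by name from a program that E2F factors mostly switch on, so this share is not an independent finding about them. A match describes the letters of the window and does not show that a factor binds there. The 6 stretches below are the bases before the start, 5′ to 3′ on the gene's strand, with E2F matches in capitals, and were picked to show a helicase subunit with a pair of long matches, the polymerase subunits with the largest differences between the groups, E2F genes themselves and the clamp.
MCM6 (chr2:135876444-135876693, minus strand): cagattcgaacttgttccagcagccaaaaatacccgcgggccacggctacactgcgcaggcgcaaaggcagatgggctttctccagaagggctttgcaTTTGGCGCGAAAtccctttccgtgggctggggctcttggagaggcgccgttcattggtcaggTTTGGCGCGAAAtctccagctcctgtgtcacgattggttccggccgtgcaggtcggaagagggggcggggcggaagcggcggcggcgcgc
POLE (chr12:132687343-132687592, minus strand): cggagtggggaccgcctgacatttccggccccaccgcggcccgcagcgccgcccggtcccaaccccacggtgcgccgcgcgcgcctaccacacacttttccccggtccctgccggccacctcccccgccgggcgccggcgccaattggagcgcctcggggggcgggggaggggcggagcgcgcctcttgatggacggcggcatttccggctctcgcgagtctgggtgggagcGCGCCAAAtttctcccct
POLA1 (chrX:24693668-24693917, plus strand): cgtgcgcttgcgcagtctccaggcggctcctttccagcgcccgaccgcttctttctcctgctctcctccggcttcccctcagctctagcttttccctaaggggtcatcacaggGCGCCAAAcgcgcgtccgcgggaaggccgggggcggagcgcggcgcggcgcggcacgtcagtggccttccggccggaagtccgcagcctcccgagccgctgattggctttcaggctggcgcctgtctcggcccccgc
E2F1 (chr20:33686386-33686635, minus strand): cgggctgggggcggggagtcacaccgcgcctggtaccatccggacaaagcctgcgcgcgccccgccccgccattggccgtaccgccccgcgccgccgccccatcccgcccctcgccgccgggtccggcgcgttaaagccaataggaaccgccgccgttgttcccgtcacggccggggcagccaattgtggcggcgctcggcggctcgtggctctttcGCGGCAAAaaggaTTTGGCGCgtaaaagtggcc
E2F2 (chr1:23531234-23531483, minus strand): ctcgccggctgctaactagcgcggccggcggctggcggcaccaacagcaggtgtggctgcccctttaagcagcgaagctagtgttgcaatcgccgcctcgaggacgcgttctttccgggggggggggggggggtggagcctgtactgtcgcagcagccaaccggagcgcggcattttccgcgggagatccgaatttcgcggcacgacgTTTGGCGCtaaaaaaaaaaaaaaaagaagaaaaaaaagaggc
PCNA (chr20:5126623-5126772, minus strand): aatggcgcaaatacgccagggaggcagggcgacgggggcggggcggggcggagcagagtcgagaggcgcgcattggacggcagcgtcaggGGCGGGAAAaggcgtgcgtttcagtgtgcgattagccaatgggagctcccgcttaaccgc

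In MCM6 the run TTTGGCGCGAAA occurs at both −152 and −90, counted so that −1 is the base before the start, and each run holds 2 overlapping forms of the site, 1 on each strand. The E2F1 window holds GCGGCAAA at −33 and TTTGGCGC at −20. Of the 40 matches in the windows of these genes, 31 lie between 60 bases before the start and the window's end at 50 bases after it. Other motifs were nearer to their share among the table's genes. The NF-Y motif CCAAT was in 24 of 43 windows (55.8%) and 36.8% of those of the table's genes, and the GC box GGGCGG in 72.1% and 69.8%. The CHR motif of mitotic genes (TTTGAA or TTCGAA) was in 4.65% and 10.6%. The 31 genes with an E2F match had a median log2 difference between ALDH high and ALDH low of 0.09, and the 12 without one a median of 0.12.

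**Figure D1:**
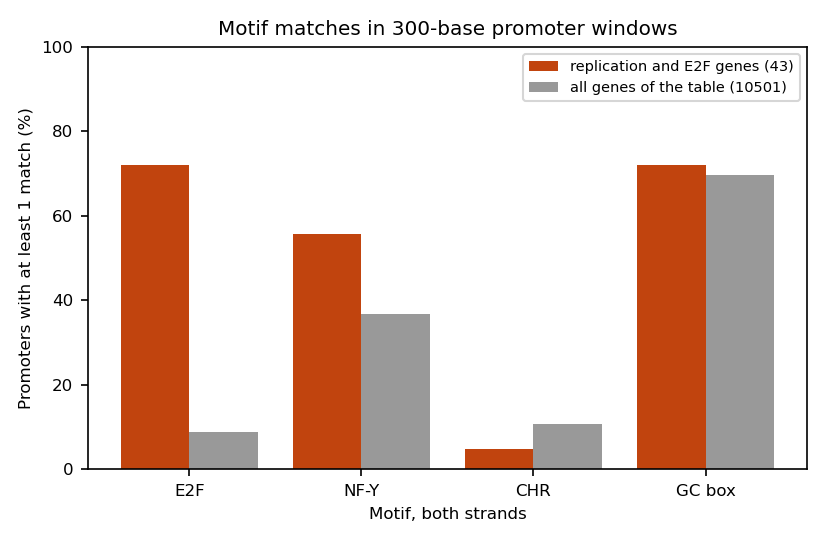
Share of promoter windows (y axis, %) with at least 1 match to each motif (x axis), for the 43 replication and E2F genes with a window and for the 10501 genes of the table with one. The E2F bars stand at 72.1% and 8.90%, while the GC box bars are 72.1% and 69.8%.

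Values are given as normalized reads, a gene's read count over the authors' size factor for that sample, with the libraries of a group in the order 1, 2, 3. From 23817310 to 30617873 reads per sample were recovered from the deposited values. The libraries did not fall together by label. By the mean chi-square per gene (1 where only sampling noise separates libraries), ALDH low 2 was as near to ALDH high 1 (6.38) as ALDH high 3 was (6.47), while ALDH high 1 and ALDH high 2 were at 68.3. ALDH high 2 was also far from ALDH low 1 (86.4) and ALDH low 3 (123). Whether the labels of the samples numbered 2 were exchanged cannot be told from the files, so every difference between ALDH high and ALDH low below takes the labels as given. The results below are therefore also given with both samples numbered 2 left out. Luminal prostate markers were abundant: KLK3, which encodes prostate-specific antigen, had 78309 to 101683 normalized reads in every library, HOXB13 17540 to 22740 and KRT18 9031 to 16996. Of markers of other cell types, 1 of 8 leukocyte, 2 of 7 endothelial and 2 of 8 fibroblast genes were in the table. The summed fibroblast pair (COL1A1, which carcinoma cells can also express, and PDGFRB) had 1539 to 1846 normalized reads in ALDH high and 881 to 1519 in ALDH low, and its part in the results below was not tested.

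No replication or E2F gene differed between ALDH high and ALDH low past the threshold. Limma on log2(normalized reads + 1) called 0 of the 49 at an adjusted p of 0.05, against a background of 0% (0 of 16000 genes), and the adjusted p of the 49 ran from 0.984 to 0.999. At an unadjusted p under 0.05 it counted 1 of the 49, POLE, where the background was 2.11%. The same 0 calls, and POLE alone at the unadjusted level, came from edgeR, from DESeq2 and from limma-voom, all run on recovered reads. Of the 49 intervals (95%, limma), all stayed inside a 2-fold change in either direction and 48 included 0. For comparison, 11958 of all 16000 genes had an interval within that range. Among genes averaging 100 or more normalized reads, as all 49 do, 10839 of 11506 did, so such intervals are not particular to this set. The log2 difference, ALDH high minus ALDH low, lay above 0 in 41 of the 49 (83.7%, background 52.3%, or 49.9% among genes averaging 100 or more normalized reads, as all 49 do), with a median of 0.10 against 0.02 over all genes and a range of −0.34 (RAD51AP1) to 0.40 (POLE). Without ALDH low 1 it was above 0 in 23 of the 49, with a median of −0.01.

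**Figure D2:**
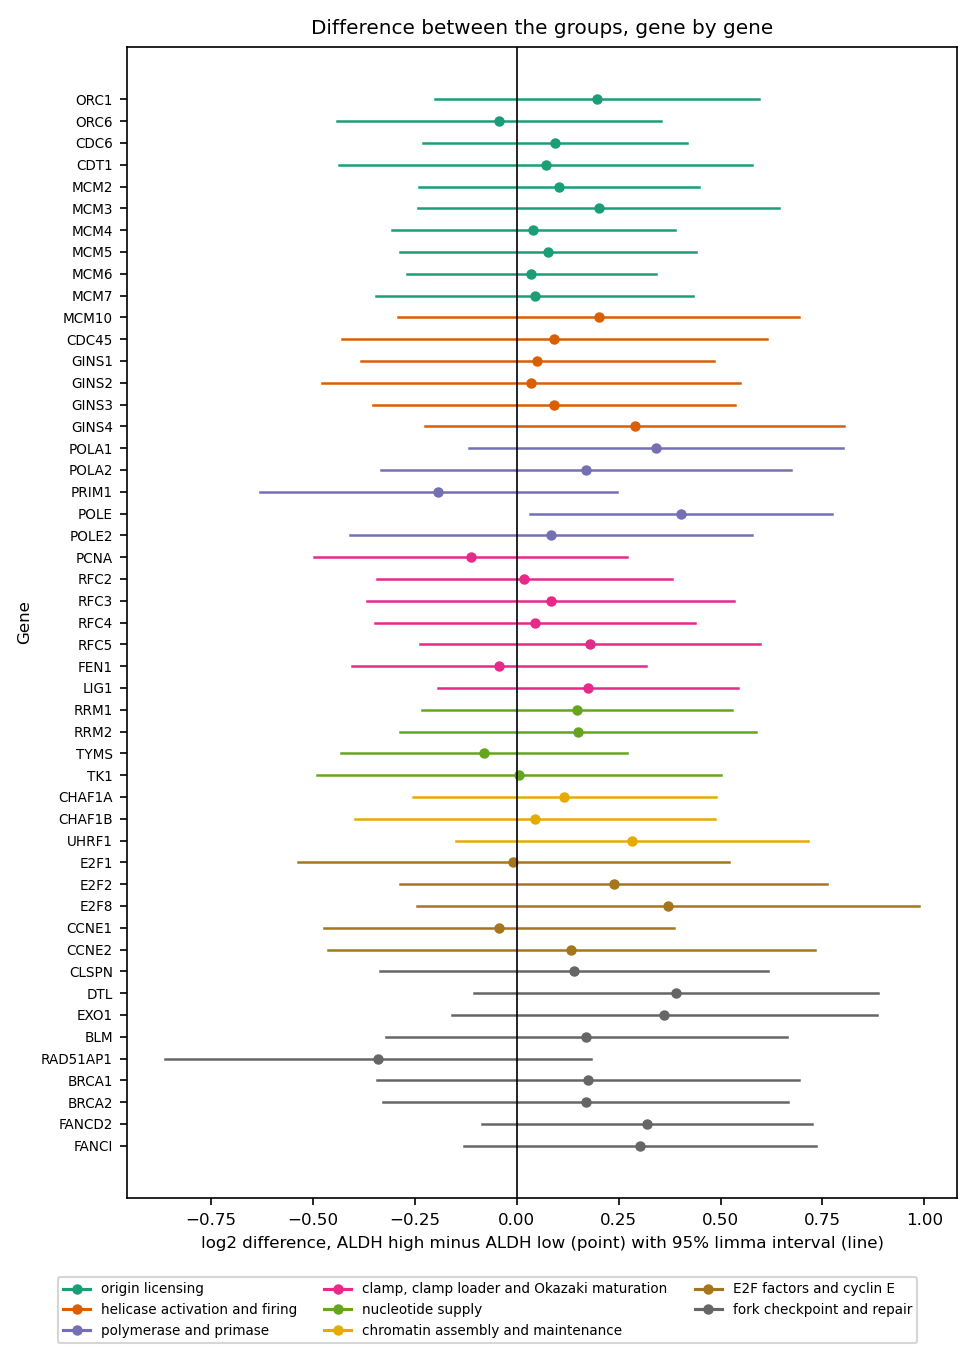
The log2 difference between ALDH high and ALDH low (x axis; points) with its 95% limma interval (lines) for each of the 49 genes (y axis), coloured by replication step. Only the interval of POLE, 0.03 to 0.77, does not include 0, and all intervals lie within a 2-fold change either way.

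Levels varied from library to library, and most of these genes shared their 3 highest libraries. In 29 of the 49 (59.2%, background 13.6%) the 3 highest libraries were ALDH high 1, ALDH high 3 and ALDH low 2, and in none of the 49 was one of these the lowest. Over all 16000 genes ALDH high 1 was the lowest in 1452, ALDH high 3 in 1910 and ALDH low 2 in 1720. ALDH low 1 was lowest in 22 (background 22.5% of genes), ALDH low 3 in 17 (27.6%) and ALDH high 2 in 10 (18.1%). The median over the 49 genes of the deviation from each gene's own 6-library mean on the log2 scale was 0.14, −0.13 and 0.14 for the ALDH high libraries and −0.28, 0.19 and −0.10 for the ALDH low ones. Over all genes the library medians lay between 0.0003 and 0.0028. Each label thus holds libraries on either side, and the groups overlapped in 48 of the 49 genes (98.0%), near the background of 93%. The ratio of a gene's highest to its lowest library ran from 1.17 (MCM6) to 2.19 (RAD51AP1), with a median of 1.62.

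**Figure D3:**
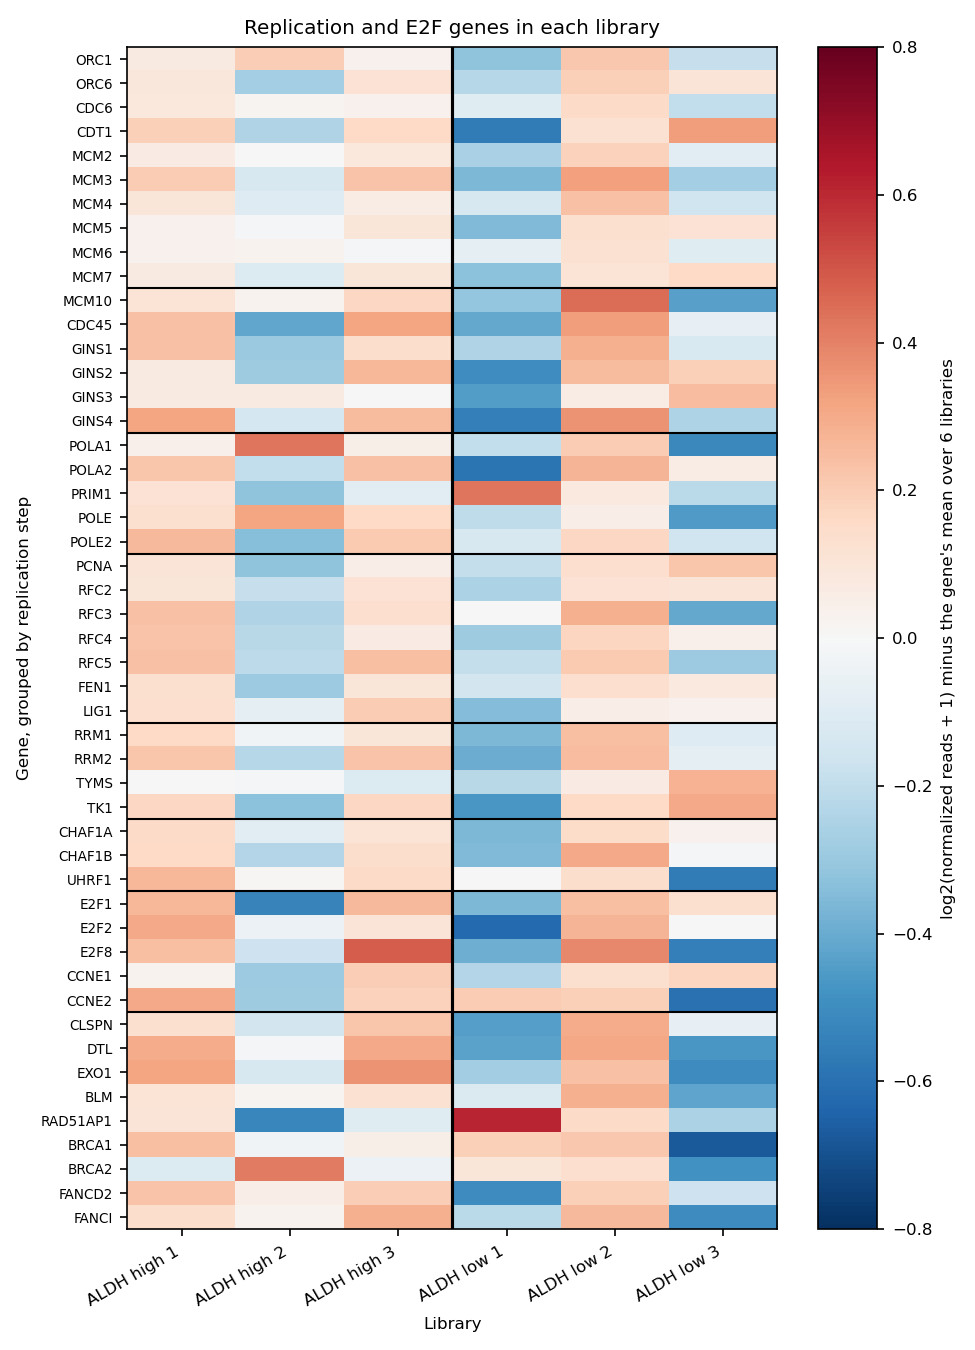
Each row is 1 of the 49 genes, grouped by replication step between black lines, and each column 1 library. Colour is log2(normalized reads + 1) minus the gene's mean over the 6 libraries: the ALDH high 1, ALDH high 3 and ALDH low 2 columns are mostly red and those of ALDH high 2 and ALDH low 1 mostly blue, while ALDH low 3 is mixed.

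Origin licensing covers ORC1 and ORC6 of the origin recognition complex, the loaders CDC6 and CDT1, and the helicase subunits MCM2 to MCM7. Of these 10 genes, 9 had differences above 0, with a median of 0.07. MCM3 (chromosome 6, 52264009 to 52284881) had 4648, 3701 and 4725 normalized reads in the ALDH high libraries, against 3152, 5081 and 3346 in the ALDH low ones. ALDH low 2 was its highest library, so the groups overlapped, and the log2 difference was 0.20 (95% interval −0.24 to 0.64). MCM2 averaged 6486 ± 181 over the ALDH high libraries and 6086 ± 961 over the ALDH low ones (SD, n = 3 each), a difference of 0.10. MCM6 was the steadiest gene of the set, at 1914, 1910 and 1863 in the ALDH high libraries, against 1776, 2038 and 1747 in the ALDH low ones.

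The helicase is a ring built from all of the MCM2 to MCM7 subunits, and their RNA levels per kilobase of exon differed. MCM7 (chromosome 7, 100092728 to 100101940) averaged 3014 normalized reads per kilobase over the 6 libraries, MCM2 1282, MCM3 1126, MCM4 634, MCM5 467 and MCM6 455. MCM2 (1067 to 1453) was above MCM3 (863 to 1392) in 6 of 6 libraries, although their ranges overlapped, while MCM5 (363 to 507) was above MCM6 (424 to 495) in 4 of 6, so that this pair cannot be ordered. MCM7, from 2381 to 3339, stood above the others in every library. These levels divide by all annotated exon bases of a gene, used or not.

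CDT1, which loads the helicase together with CDC6 and is destroyed in S phase, was highest in ALDH low 3 and lowest in ALDH low 1, as was MCM7. CDT1 had 2943, 2181 and 2885 normalized reads in the ALDH high libraries, against 1749, 2805 and 3257 in the ALDH low ones. Its lowest and highest library were thus both ALDH low, as they also were for ORC1, CDC6 and MCM2 to MCM7. CDC6 had 1907, 1820 and 1839 in the ALDH high libraries, against 1681, 1993 and 1569 in the ALDH low ones, a difference of 0.09. ORC1 had 691, 754 and 673 in the ALDH high libraries, against 527, 763 and 578 in the ALDH low ones, a difference of 0.20, and ORC6 was the only licensing gene below 0, at −0.04 (just above 0 with total-count scaling).

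Firing turns the loaded MCM ring into a moving helicase by adding CDC45 and the GINS complex, with MCM10 as an activator. All 6 of these genes had differences above 0, from 0.04 (GINS2) to 0.29 (GINS4), and as a step they had the widest library medians, from −0.43 in ALDH low 1 to 0.31 in ALDH low 2. GINS4 (chromosome 8, 41529206 to 41545046) had 1268, 925 and 1215 normalized reads in the ALDH high libraries, against 697, 1308 and 858 in the ALDH low ones. Its 3 highest libraries were ALDH high 1, ALDH high 3 and ALDH low 2. CDC45 (chromosome 22, 19479459 to 19520612) had 2220, 1411 and 2347 in the ALDH high libraries, against 1418, 2376 and 1803 in the ALDH low ones. Here ALDH high 2 and ALDH low 1 lay together at the bottom and the difference between groups was 0.09 (−0.43 to 0.61). MCM10 had 978, 926 and 1020 in the ALDH high libraries, against 733, 1238 and 671 in the ALDH low ones, a difference of 0.20.

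Among the polymerases, POLE was the only gene of the 49 whose groups did not overlap (2.04%, background 3.67% for genes higher in ALDH high, or 2.76% of those averaging 100 or more). POLE (chromosome 12, 132623753 to 132687365), the catalytic subunit of the leading-strand polymerase, had 1288, 1468 and 1317 normalized reads in the ALDH high libraries, against 1022, 1225 and 860 in the ALDH low ones. Its averages were 1358 ± 96.6 and 1036 ± 183 (SD, n = 3 each). The log2 difference was 0.40, with a 95% interval from 0.03 to 0.77 (limma unadjusted p = 0.0358, adjusted p = 0.984). The difference was 0.28 to 0.53 when any 1 library was left out, and its unadjusted p was then under 0.05 only without ALDH low 2. In the authors' deposited table its log2 fold change, taken as ALDH low over ALDH high, was −0.39, with an adjusted p of 0.998.

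POLA1 (chromosome X, 24693919 to 24996986), the catalytic subunit of the polymerase that starts each strand, had 856, 1121 and 861 normalized reads in the ALDH high libraries, against 726, 960 and 582 in the ALDH low ones, a difference of 0.34 (−0.12 to 0.80). POLA1, POLE and BRCA2 were the 3 genes of the set that were highest in ALDH high 2. The accessory subunits did not share this: POLA2 had 1381, 1033 and 1397 in the ALDH high libraries, against 789, 1430 and 1238 in the ALDH low ones, and POLE2 304, 201 and 294 in the ALDH high libraries, against 232, 285 and 227 in the ALDH low ones. PRIM1, the primase that lays the RNA primer, was below 0 at −0.19 (−0.63 to 0.24), with 948, 699 and 823 in the ALDH high libraries, against 1175, 920 and 753 in the ALDH low ones.

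The clamp PCNA, its loader (RFC2 to RFC5), and the enzymes that trim and seal Okazaki fragments, FEN1 and LIG1, gave 5 differences above 0 and 2 below. PCNA (chromosome 20, 5114953 to 5126626) had 5319, 3959 and 5138 normalized reads in the ALDH high libraries, against 4345, 5444 and 5786 in the ALDH low ones, a difference of −0.11 (−0.50 to 0.27). ALDH high 2 was its lowest library and ALDH low 3 its highest. FEN1 had 3423, 2564 and 3357 in the ALDH high libraries, against 2838, 3444 and 3305 in the ALDH low ones, a difference of −0.04, which was just above 0 with total-count scaling. The loader subunits ran from 0.02 (RFC2) to 0.18 (RFC5), and LIG1, the ligase, was at 0.17. Per kilobase of exon PCNA averaged 3398 normalized reads, above RFC2 at 677, RFC3 at 508, RFC4 at 470 and RFC5 at 389, whose ranges overlapped from each to the next. Within libraries RFC2 was above RFC3 in 6 of 6, RFC3 above RFC4 in 5 and RFC4 above RFC5 in 6.

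Nucleotide supply was led by TK1, the thymidine kinase of the salvage pathway, which had the highest level per kilobase of the set (4706). TK1 (chromosome 17, 78174075 to 78187233) had 9651, 6852 and 9645 normalized reads in the ALDH high libraries, against 6212, 9583 and 10609 in the ALDH low ones, and its difference was 0.005 (−0.49 to 0.50), below 0 with edgeR and DESeq2. TYMS, the thymidylate synthase, was at −0.08, and was highest in ALDH low 3 (3457) and lowest in ALDH low 1 (2450). RRM1 and RRM2, the subunits of ribonucleotide reductase, were both at 0.15, with RRM2 at 2975, 2178 and 2986 in the ALDH high libraries, against 1932, 3025 and 2425 in the ALDH low ones. For all 4 genes ALDH low 1 was the lowest library.

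Of the chromatin genes, CHAF1A and CHAF1B, which place histones behind the fork, had differences of 0.12 and 0.05. UHRF1, which brings the maintenance DNA methyltransferase to newly copied DNA, was at 0.28 (−0.15 to 0.71). It had 1505, 1258 and 1390 normalized reads in the ALDH high libraries, against 1251, 1378 and 847 in the ALDH low ones, so ALDH low 3 alone stood below the rest.

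Among the regulators, E2F1 is a main activator of the program, E2F2 another activator and E2F8 a repressor that is itself an E2F target. E2F1 (chromosome 20, 33675683 to 33686404) had 2732, 1568 and 2720 normalized reads in the ALDH high libraries, against 1774, 2691 and 2486 in the ALDH low ones, a difference of −0.009 (−0.54 to 0.52) whose sign turned with total-count scaling, edgeR and DESeq2. ALDH high 2 and ALDH low 1 held the low values, 1 in each group. E2F2 had 506, 398 and 440 in the ALDH high libraries, against 266, 495 and 410 in the ALDH low ones, a difference of 0.24. E2F8 (chromosome 11, 19224063 to 19241620) had 291, 219 and 344 in the ALDH high libraries, against 187, 321 and 168 in the ALDH low ones, a difference of 0.37 (−0.25 to 0.99).

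Per kilobase of exon E2F1 averaged 930 normalized reads, E2F2 76.8 and E2F8 61.6. The libraries of E2F2 (48.7 to 92.7) and E2F8 (40.6 to 83.1) overlapped, with E2F2 the higher in 5 of 6. The cyclin E genes, whose kinase drives entry to S phase, had differences of −0.04 (CCNE1, just above 0 with total-count scaling) and 0.13 (CCNE2), and CCNE1 was the higher of the pair per kilobase, at 165 to 232 against 32.6 to 61.0.

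**Figure D4:**
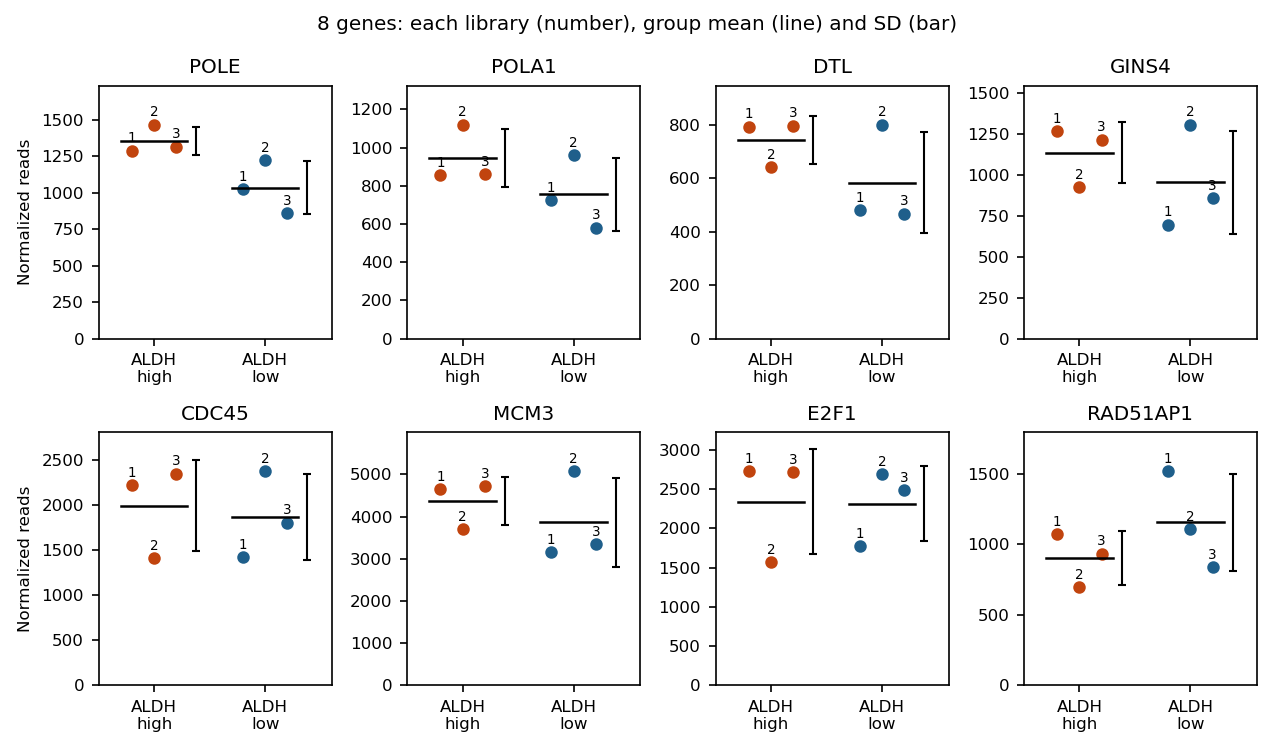
Normalized reads (y axis, from 0) of 8 genes in each library, with the replicate number beside each point, the group mean as a line and the SD as a bar (n = 3 each). POLE is the only one without overlap between the groups, and ALDH low 2 lies beside ALDH high 1 and 3 in DTL, GINS4, CDC45 and E2F1.

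Genes of the fork checkpoint and of repair at stalled forks had the widest spread of differences. In 8 it was above 0 and in 1 below, and their median was 0.17. DTL (chromosome 1, 212035553 to 212107400), which marks CDT1 for destruction on loaded PCNA, had 793, 640 and 796 normalized reads in the ALDH high libraries, against 479, 800 and 467 in the ALDH low ones. The difference was 0.39 (−0.11 to 0.89), with ALDH low 2 above all 3 ALDH high libraries. EXO1, a nuclease of resection and mismatch repair, had 418, 307 and 430 in the ALDH high libraries, against 276, 395 and 237 in the ALDH low ones, a difference of 0.36. FANCD2 and FANCI form the pair that is ubiquitylated at crosslinks and were at 0.32 and 0.30. FANCD2 (chromosome 3, 10026414 to 10101930) averaged 2130 ± 133 over the ALDH high libraries and 1739 ± 416 over the ALDH low ones (SD, n = 3 each), and FANCI 2100 ± 191 and 1739 ± 473.

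BRCA1, BRCA2 and BLM, of homologous recombination, had differences of 0.17, 0.17 and 0.17, and all 3 were lowest in ALDH low 3. BRCA1 had 550 there and 860 to 1037 in the other libraries. CLSPN, the adaptor of the checkpoint kinase CHEK1, was at 0.14. RAD51AP1 (chromosome 12, 4538798 to 4560048), which acts in homologous recombination, had the largest negative difference, −0.34 (−0.86 to 0.18). It had 1071, 693 and 932 normalized reads in the ALDH high libraries, against 1519, 1106 and 837 in the ALDH low ones. RAD51AP1 and PRIM1 were the only genes of the set that were highest in ALDH low 1, the library that was lowest for 22 others.

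With both samples numbered 2 left out, the 4 remaining libraries did separate for most of the set, though no gene passed the threshold. These 4 were not 2 groups of alike libraries. By the mean chi-square per gene ALDH high 1 and ALDH high 3 were at 6.47, but ALDH low 1 and ALDH low 3 at 113. ALDH high 1 and 3 both lay above ALDH low 1 and 3 in 33 of the 49 genes (67.3%, background 24.7%) and below both in none (background 23.5%). The samples numbered 2 were left out after their values were seen. The 29 genes highest in ALDH high 1, ALDH high 3 and ALDH low 2 are among these 33 by construction. The count of 33 therefore largely restates the earlier one and is not separate support. Limma called 0 of the 49 (background 0.669%, 107 of 16000 genes). The lowest adjusted p in the set was 0.127, in DTL. At an unadjusted p under 0.05 it counted 12 (24.5%, background 15.3%). The median difference was 0.36, with 46 of 49 above 0 (background 50.7%). The largest were E2F8 at 0.83 (0.33 to 1.34), DTL at 0.75 (0.35 to 1.15) and EXO1 at 0.73 (0.26 to 1.19), and GINS4 was at 0.68, while PRIM1, TYMS and RAD51AP1 were below 0. Over the 6 libraries the median was 0.10, so its size depends on which libraries are kept.

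Other genes of the pathway, 86 of 87 listed and in the table, were divided more evenly between the groups. In 46 of the 86 the difference was above 0 and in 40 below, with a median of 0.03, and limma called 0 of them (1 at an unadjusted p under 0.05, RAD51C). Their 3 highest libraries were ALDH high 1, ALDH high 3 and ALDH low 2 in 22 (25.6%, background 13.6%). Their library medians were 0.08, −0.11 and 0.002 for the ALDH high libraries and −0.04, 0.12 and −0.08 for the ALDH low ones. These had the same signs as those of the 49 genes in all 6 libraries. In ALDH high 3, however, the value of 0.002 was no higher than the median over all genes (0.0028). All were nearer to 0 than for the 49 genes, as in ALDH low 1 (−0.28 for the 49). Among them the licensing inhibitor GMNN had 1889, 1360 and 1670 normalized reads in the ALDH high libraries, against 2189, 1878 and 1993 in the ALDH low ones, a difference of −0.31, and ORC4 of the origin complex was at −0.37, highest in ALDH low 1 (1214). TICRR and DONSON, which act in origin firing, were at 0.30 and 0.21.

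Of the other fork polymerases and binding proteins, POLE4 had the lowest difference. This gene, a histone-fold subunit of the same polymerase as POLE, had 1116, 1314 and 1120 normalized reads in the ALDH high libraries, against 1926, 1109 and 2095 in the ALDH low ones, a difference of −0.48, opposite in sign to POLE. RPA3, the smallest subunit of the single-strand binding protein, was at −0.38, while ATAD5, which unloads PCNA, was at 0.44 and POLD3 at 0.24. Of the other nucleotide and chromatin genes, the maintenance methyltransferase DNMT1 was at 0.28 and the histone chaperone ASF1B at 0.17. The paralogue of ASF1B, ASF1A, whose groups did not overlap, was at −0.17 and the nucleotide hydrolase DCTPP1 at −0.20.

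In the E2F and RB list, E2F7, the close relative of E2F8, had the largest difference, 0.61 (−0.12 to 1.33), with 400, 333 and 418 normalized reads in the ALDH high libraries, against 191, 462 and 178 in the ALDH low ones. E2F5, a factor of repressive complexes, had 335, 347 and 291 in the ALDH high libraries, against 386, 394 and 442 in the ALDH low ones. Its groups did not overlap, and the difference was −0.33. Of all 86 other pathway genes, 7 were lower in ALDH high without overlap (background 3.32%) and 1 was higher (background 3.67%). CDK4 was at −0.24 and CDK6 at 0.27. Of the other repair genes, RAD51C had 1209, 970 and 1154 in the ALDH high libraries, against 1564, 1296 and 1389 in the ALDH low ones, without overlap, a difference of −0.35 (−0.70 to −0.01) with a limma adjusted p of 0.984. USP1 was at −0.16, BRIP1 at 0.34 and RAD54L at 0.36.

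Mitotic genes, which follow replication in the cycle, had library medians of 0.09, −0.09 and 0.12 for the ALDH high libraries and −0.28, 0.21 and −0.21 for the ALDH low ones, the same signs as those of the replication set. Of the 20, 13 had differences above 0, with a median of 0.08, and limma called none. MKI67, the proliferation marker Ki-67, had the largest difference of the 20, 0.56 (−0.04 to 1.16). It was highest in ALDH high 2 (3083 normalized reads), where the median of the mitotic genes was below 0. CCNB1 was at 0.05, CCNA2 at −0.01 and CDK1 at −0.28. CDK1 had 6117, 3513 and 5823 normalized reads in the ALDH high libraries, against 8272, 6487 and 4131 in the ALDH low ones, so that ALDH low 1 was its highest library, as for RAD51AP1 and PRIM1.

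**Figure D5:**
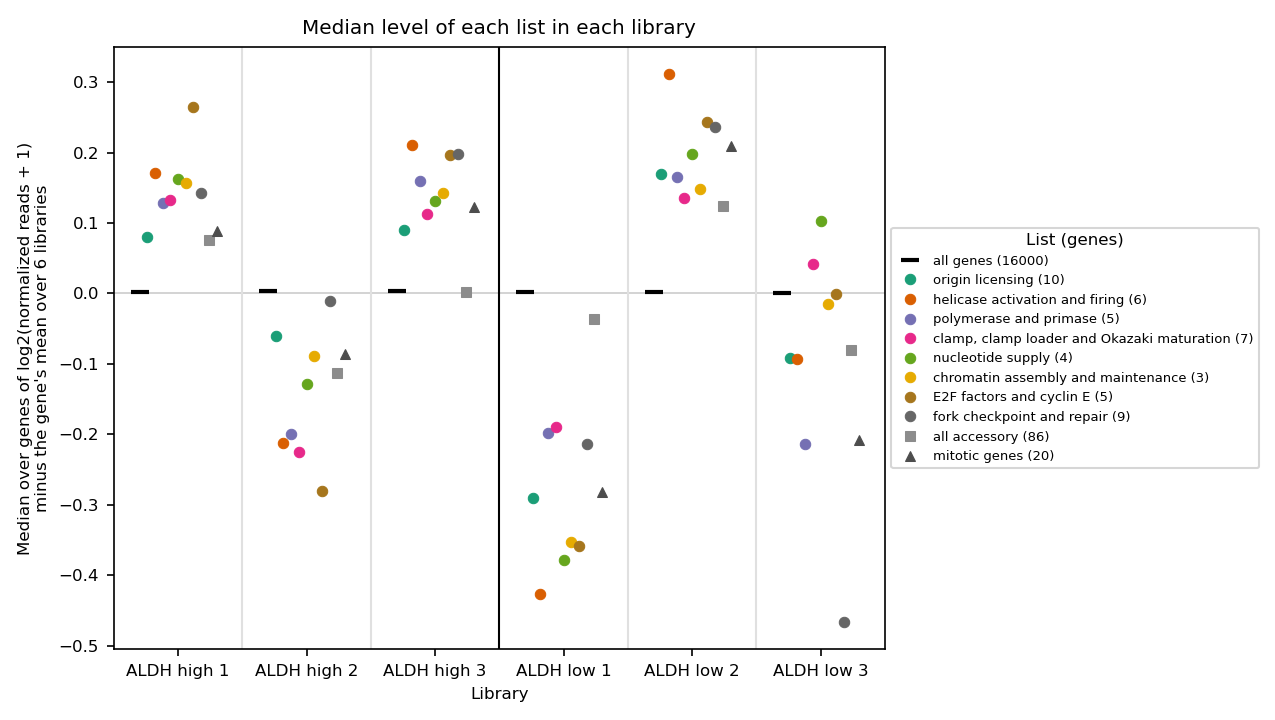
For each library (x axis), the median over each list's genes of log2(normalized reads + 1) minus the gene's mean over 6 libraries (y axis), for the 8 replication steps (circles), the 86 other pathway genes (squares), 20 mitotic genes (triangles) and all genes (dashes). All 8 steps lie above 0 in ALDH high 1, ALDH high 3 and ALDH low 2 and below 0 in ALDH high 2 and ALDH low 1, and they scatter in ALDH low 3.

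Steps parted most in ALDH low 3. There the median deviation was 0.10 for nucleotide supply and 0.04 for the clamp and its partners, but −0.47 for checkpoint and repair genes and −0.21 for the polymerases. Of the 49 genes, 6 were at their highest in that library, among them TK1, TYMS, PCNA and CDT1. There 17 were at their lowest, among them BRCA1, CCNE2, UHRF1, POLA1 and POLE. Steps were not uniform: CDC6, MCM4 and MCM6 of CDT1's step and RFC3 and RFC5 of PCNA's step were also lowest there.

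Some of these counts may hold reads of other genes, or lack reads from bases shared with them. The labels do not state whether strand was kept. Exon bases shared with another annotated gene were over 10% in 9 of the 49: TYMS (46.6%, mostly with ENOSF1 on the opposite strand), CCNE2 (37.1%, INTS8, opposite), POLA2 (35.1%), MCM2 (23.6%), GINS4 (23.6%), PRIM1 (21.6%), RRM2 (20.2%), GINS3 (10.9%) and RFC5 (10.6%). For POLA2, PRIM1 and RRM2 the main partner lies on the same strand, so keeping strand would not separate those reads. The main partners of the rest are on the opposite strand. Named pseudogenes in the annotation exist for 8 of the 49, among them 3 each for PCNA and RRM2, and reads placed equally well in a gene and its copy were not counted.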

How the data were processed

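Per the labels' protocols, poly(A) RNA was sequenced and unique reads in exons were counted per gene with featureCounts. The submitters' processing notes name Trimmomatic 0.36, STAR 2.5.2b, Subread 1.5.2, DESeq2 and the build GRCh38. Which annotation release was counted is not stated there. The authors deposited a normalized signal per gene and sample (reads counted, over that sample's size factor), with their own log2 fold change (positive where ALDH low is higher) and p-values, per the file headers. Whole reads were recovered from the steps of the values: at least 99.99% came out whole within 0.02 of a read, and edgeR on these reads called 0 genes. The table held 16046 rows, 46 of them ERCC spike-ins, with a lowest mean of 9.65. Coordinates, exon lengths and 66 missing or altered names came from GENCODE 29, which matched 15939 of 16000 identifiers.

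The main test was limma 3.58.1, run in R 4.3.3 on log2(value + 1) with its trend option, over all genes, with Benjamini-Hochberg adjustment and a threshold of 0.05. This scale understates changes of low genes. Alternatives were edgeR 4.0.16, DESeq2 1.42.0 and limma-voom on the recovered reads, other pseudocounts, a filter, no trend, total-count scaling, a replicate block and left-out libraries. The script was tested on simulated data. The members, lists and tests were chosen with earlier results of these data known. Text names all 49 members, up to 2 with the largest and 2 with the smallest difference of each other pathway list (mean of at least 100), and fixed mitotic and luminal markers.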

Additional observations from a re-analysis of the deposited data

Results flagged for a closer look

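The ERCC spike-ins, synthetic control RNAs outside every comparison here, took 0.487% of the recovered reads, more than a count of 0 would permit. By library this was 0.399% to 0.630% in ALDH high and 0.448% to 0.556% in ALDH low. With 3 samples a group, no search for single outlying libraries was made.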

How the results depend on the processing

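No replication or E2F gene was called in any of the 16 alternatives, and over all genes 0 were called in each but the one that left out both samples numbered 2, which called 107. That one also raised the median difference of the set to 0.36. The median stayed at 0.10 with edgeR, DESeq2, limma-voom, either pseudocount, no mean-variance trend and a minimum mean of 100, and was 0.15 with total-count scaling, which put the median of all genes at 0.06. Leaving out 1 library at a time gave medians from −0.01 to 0.24, 23 to 46 genes above 0 and 0 called. The lowest median and count came without ALDH low 1.

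The groups share replicate numbers, and the labels do not state whether same-numbered samples belong together. Across genes, the deviations of same-numbered samples correlated at −0.46, −0.43 and 0.14. These values cannot decide whether the samples are paired, because an exchange of labels, which cannot be told from the files, would change them. With the replicate number as a block, limma called 0 genes, with a median difference of 0.10.

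The sign held in every alternative in 19 of the 49 genes and turned in at least 1 in 30, and the cause was not tested. Total-count scaling gave 0.0008 in ORC6, 0.036 in E2F1, 0.0005 in CCNE1 and 0.0004 in FEN1. EdgeR gave 0.011 in E2F1 and −0.016 in TK1, and DESeq2 0.014 in E2F1 and −0.015 in TK1. With both samples numbered 2 left out the log2 difference was 0.17 in ORC6, 0.38 in E2F1, 0.14 in CCNE1, 0.060 in PCNA and 0.15 in FEN1.

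Leaving out 1 library turned the sign of E2F2, POLA2, RFC2, MCM2, CLSPN, CDC45, MCM5, GINS1, MCM4, GINS2, CHAF1B, RFC4, MCM7, CDT1, CHAF1A, TK1, RRM2 and GINS3 without ALDH low 1. It turned that of BRCA1, MCM6, E2F1, MCM4, CCNE1, RFC3, BRCA2, CCNE2 and TYMS without ALDH low 3, and that of ORC6, E2F1, CCNE1 and FEN1 without ALDH low 2. Without ALDH high 1 it turned RFC2, CDC45, POLE2, GINS1, RFC3, CHAF1B, RFC4, CDT1 and TK1, without ALDH high 2 ORC6, E2F1, CCNE1, PCNA and FEN1, and without ALDH high 3 RFC2, CDC45, GINS1, GINS2, CHAF1B and TK1. Over these 6 omissions the log2 difference ran from −0.10 to 0.11 in RFC2, −0.090 to 0.32 in CDC45, −0.023 to 0.27 in POLE2, −0.058 to 0.21 in GINS1, −0.10 to 0.25 in RFC3, −0.12 to 0.21 in CHAF1B, −0.086 to 0.17 in RFC4, −0.19 to 0.26 in CDT1, −0.23 to 0.17 in TK1, −0.17 to 0.082 in ORC6, −0.19 to 0.26 in E2F1, −0.17 to 0.091 in CCNE1, −0.24 to 0.021 in PCNA, −0.13 to 0.090 in FEN1, −0.21 to 0.19 in GINS2, −0.016 to 0.43 in E2F2, −0.081 to 0.35 in POLA2, −0.0004 to 0.22 in MCM2, −0.047 to 0.32 in CLSPN, −0.083 to 0.16 in MCM5, −0.032 to 0.17 in MCM4, −0.11 to 0.13 in MCM7, −0.034 to 0.22 in CHAF1A, −0.013 to 0.31 in RRM2, −0.11 to 0.24 in GINS3, −0.12 to 0.33 in BRCA1, −0.0050 to 0.11 in MCM6, −0.029 to 0.28 in BRCA2, −0.13 to 0.31 in CCNE2 and −0.21 to 0.037 in TYMS.

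The 49 genes averaged 223 to 13221 normalized reads. The median half-width of their 95% intervals was 0.44 on the log2 scale with 3 libraries a group, so smaller differences could mostly not be told from 0.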
